A study of Mus musculus with 36 samples.

Results

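The comparison concerns how far the response of mouse macrophages to 8 h of lipopolysaccharide (LPS, a bacterial cell wall product) differed between the genotype labels NOS1 KO and WT. For each gene it is the interaction on the log2 scale, namely the KO response (LPS 8 h over control) minus the WT response (LPS 8 h over control). A positive value therefore means a larger rise, or a smaller fall, in KO-labelled libraries. Libraries were chosen by their genotype and treatment labels, which gave 6 KO LPS 8 h, 6 KO control, 6 WT LPS 8 h and 6 WT control libraries, 24 of the 36 in the series. Labels that put BMDM before the genotype were counted with that genotype. All cells were bone marrow-derived macrophages, grown from marrow over 5 days in medium with the growth factor M-CSF at 20 ng/mL, and LPS was given at 100 ng/mL. The labels describe the genotype only as WT or NOS1 KO and name no allele, strain, age, sex, animal or culture day. Whether replicate libraries are separate cultures is not stated, so each p-value reflects the scatter among the libraries given, part of which may be technical. The series title concerns SOCS1, an inhibitor of cytokine signalling, and targets of NF-kB.

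LPS is sensed by Toll-like receptor 4. Its adaptor MyD88 leads to NF-kB and MAP kinases, which switch on cytokines and chemokines, and its adaptor TRIF leads to interferon beta, which acts back on the cells to switch on interferon-stimulated genes. NOS1 is the neuronal nitric oxide synthase, while macrophages stimulated with LPS make nitric oxide mainly with NOS2.

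Nos1 itself went against the KO label. KO-labelled libraries held 10 to 83 Nos1 counts each and WT-labelled libraries 0 to 8, so the words KO and WT below stand for labels, and each direction depends on them. Counts per gene do not show which exons were read. The 24 libraries held between 8953489 and 15112452 counts, and 12957 genes had enough counts to be tested. In each group the libraries fell into 2 unlabelled sets of 3, here called set B and set A, which the first principal component of the within-group differences separated (34.6% of the variance). Compared pairwise, libraries had a median chi-square per gene of 4.2 inside set B, 15.4 inside set A and 55.8 between the sets. The sets were found from these counts and are not groups of the study. The WT control and WT LPS 8 h libraries of replicate 1, both in set A, held Xist reads and no reads of Y-linked genes, unlike the other 22. Macrophage markers such as Csf1r (699 to 1240 CPM, counts per 1000000 of the scaled library size) and Cd68 (1510 to 2430 CPM) were present in all. Skeletal muscle markers summed to 5080 CPM in WT LPS 8 h replicate 5 of set B, to 146 CPM in WT LPS 8 h replicate 6 of set A and to at most 75.7 CPM elsewhere.

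With the 24 libraries pooled in 1 mean per group, no gene was called different in its 8 h LPS response between the genotype labels. By edgeR's quasi-likelihood test, 0 of 12957 genes (0%) had an adjusted p below 0.05, and 544 (4.2%) had an unadjusted p below 0.05. The median interaction was 0.01 and the median standard error (SE) 0.23. The 95% interval of the interaction lay within 1 log2 unit of 0 for 9148 genes (70.6%). The responses themselves were large: 9342 genes were called in KO-labelled and 9227 in WT-labelled macrophages. Limma-voom also called 0 genes, with 406 at an unadjusted p below 0.05, and DESeq2 called 4. The pooled fit has no term for the library sets described below. With the set as an additive term 3 genes were called, and with a mean for each group and set, the interaction averaged over the sets was called for 187 genes (1.44%), 95 higher (0.733%) and 92 lower (0.71%).

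The genes that came nearest were Tmem110 and Oasl1. Tmem110, which encodes a membrane protein of the endoplasmic reticulum that acts in calcium entry, had an interaction of 0.69 ± 0.14 (SE; adjusted p = 0.281). Its level after LPS was 28.4, 27.2 and 28.1 CPM in KO and 17, 19 and 17.7 CPM in WT libraries of set B. In set A it was 27.7, 24 and 26.7 CPM in KO and 20.3, 16.2 and 21.9 CPM in WT libraries, so KO values lay above WT values in both sets. KO controls stood at 8.19 to 9.46 CPM and WT controls at 8.87 to 11.9 CPM. Its interaction was 0.66 ± 0.16 in set B (adjusted p = 0.0135) and 0.72 ± 0.17 in set A (adjusted p = 0.871). DESeq2 called Tmem110 (adjusted p = 0.0152), Oasl1, Nadk (NAD kinase, -0.30 ± 0.07) and Nav2 (a neuron navigator, 1.03 ± 0.25). These genes were picked out after their values were seen.

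The outcome depended on the library set. In a fit with a mean for each group and set, 669 genes (5.16%) were called in set B, 362 higher (2.79%) and 307 lower (2.37%), whereas 0 were called in set A by edgeR, limma-voom and DESeq2 (557 at an unadjusted p below 0.05 by edgeR). The interaction itself was tested between the sets, and 224 genes (1.73%) differed, 90 with a higher (0.695%) and 134 with a lower interaction in set B (1.03%). The median interaction of all tested genes was 0.01 in both sets and the median SE was 0.22 in both. Counts per set rest on 3 libraries a group, and the call in set B uses a spread estimated over both sets. Scaled by library totals alone, 669 genes were again called in set B, but 254 higher and 415 lower. The share of higher calls was then 38.0%, against 54.1% with the scaling used here.

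**Figure D1:**
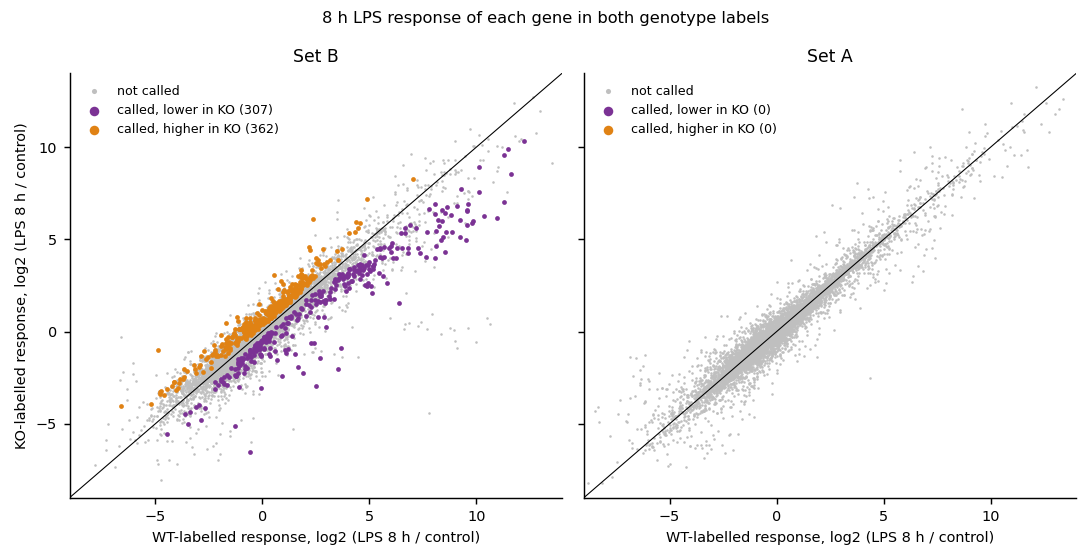
Log2 response to 8 h of LPS in KO-labelled libraries (vertical axis) against WT-labelled libraries (horizontal axis) for 12957 genes, in set B (left) and set A (right); the line marks equal responses. Colours mark genes called for the interaction, 307 lower and 362 higher in set B and 0 in set A.

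Interferon-stimulated genes formed the largest group with a smaller KO response in set B. Of 46 tested, 43 were called lower and 0 higher, with a median interaction of -1.91 against 0.01 for all genes. In set A 0 of 46 were called and the median was 0.19. The difference between the sets was called for 36 of 46, all lower in set B. Over both sets pooled, the list's median was -0.97 and 0 were called, whereas averaged over the sets the median was -0.84 and 27 of 46 were called lower. All 46 genes rose with LPS in KO-labelled libraries (median 3.65; 35% of all genes rose) and in WT-labelled libraries (median 5.36; 34.1% of all genes rose) of set B. The 3 not called were Ifit1bl1, Samhd1 and Ifi27l2a.

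The values show that in set B these genes stood apart mainly before LPS. All 46 were called higher in KO controls than in WT controls of set B (median log2 difference 2.35, where 2.49% of all genes were higher), and 14 were still higher at 8 h, with a median of 0.38 (10.4% of all genes were higher). Isg15, a ubiquitin-like modifier that interferon induces, had 2190, 2460 and 2300 CPM in KO LPS 8 h and 2050, 2090 and 1830 CPM in WT LPS 8 h libraries of set B. Controls of set B had 50.1, 51.8 and 61.6 CPM in KO and 6.11, 4.8 and 4.72 CPM in WT libraries. The genotype labels did not overlap in set B at either time, and lay closer together after LPS than in controls. The interaction was -3.17 ± 0.27 (SE; adjusted p = 4.47e-09). In set A the Isg15 controls overlapped, at 7.98, 9.28 and 6.82 CPM in KO and 18, 8.86 and 5.49 CPM in WT libraries, and the interaction was 0.37 ± 0.28. The difference between the sets was -3.55 ± 0.39 (adjusted p = 2.17e-06).

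Irf7, the transcription factor that amplifies interferon production, had the same form. Its KO controls of set B held 242, 233 and 243 CPM and its WT controls 8.92, 9.89 and 9.97 CPM. After LPS the values were 3630, 3970 and 3730 CPM in KO and 2620, 2680 and 2390 CPM in WT libraries. The KO level after LPS was above every WT level, yet the fold rise was smaller, with an interaction of -4.08 ± 0.42 (adjusted p = 1.09e-07). In set A it was 0.10 ± 0.41. Among the genes for antiviral effectors, the interaction in set B was -3.19 ± 0.36 for Ifit1 and -4.22 ± 0.48 for Ifit3, which encode RNA-binding proteins that hold back viral translation. It was -3.36 ± 0.39 for Oasl1, a member of the oligoadenylate synthetase-like family, and -3.57 ± 0.42 for Zbp1, a sensor of Z-form nucleic acid. Usp18, which removes ISG15 from proteins and dampens interferon receptor signalling, stood at -2.75 ± 0.40. Of these 5, Oasl1 had a negative value in set A (-0.71 ± 0.42), and the others lay between 0.16 and 0.70 there.

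Ifi206, Ifi208 and Ifi213, members of the interferon-inducible p200 family, had larger values with few counts at the low end. Ifi206 stood at 24.1, 18.9 and 27.6 CPM in KO controls and at 0.594, 0.42 and 0.607 CPM in WT controls of set B. After LPS it reached 767, 715 and 717 CPM in KO libraries and 400 ± 15.4 CPM (SD, n = 3) in WT libraries, without overlap. Its interaction was -4.57 ± 0.49 in set B and 0.33 ± 0.51 in set A. Ifi208 (-4.83 ± 0.66) and Ifi213 (-4.12 ± 0.73) behaved alike in set B. WT control replicate 1 of set A, a library with Xist reads, held the highest level of Isg15, Irf7 and Ifit3 among the WT controls. Without the WT libraries that held Xist reads, the list had 45 of 46 genes called lower in set B, and 0 genes were called in set A. In this comparison those libraries are in set A, so leaving them out cannot test the set B values. The list's median in set B stayed at -1.91, and the calls changed through the spread shared by both sets. The part of WT control replicate 1 was not tested further. Without the 2 libraries with skeletal muscle reads the list's count was 43.

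**Figure D2:**
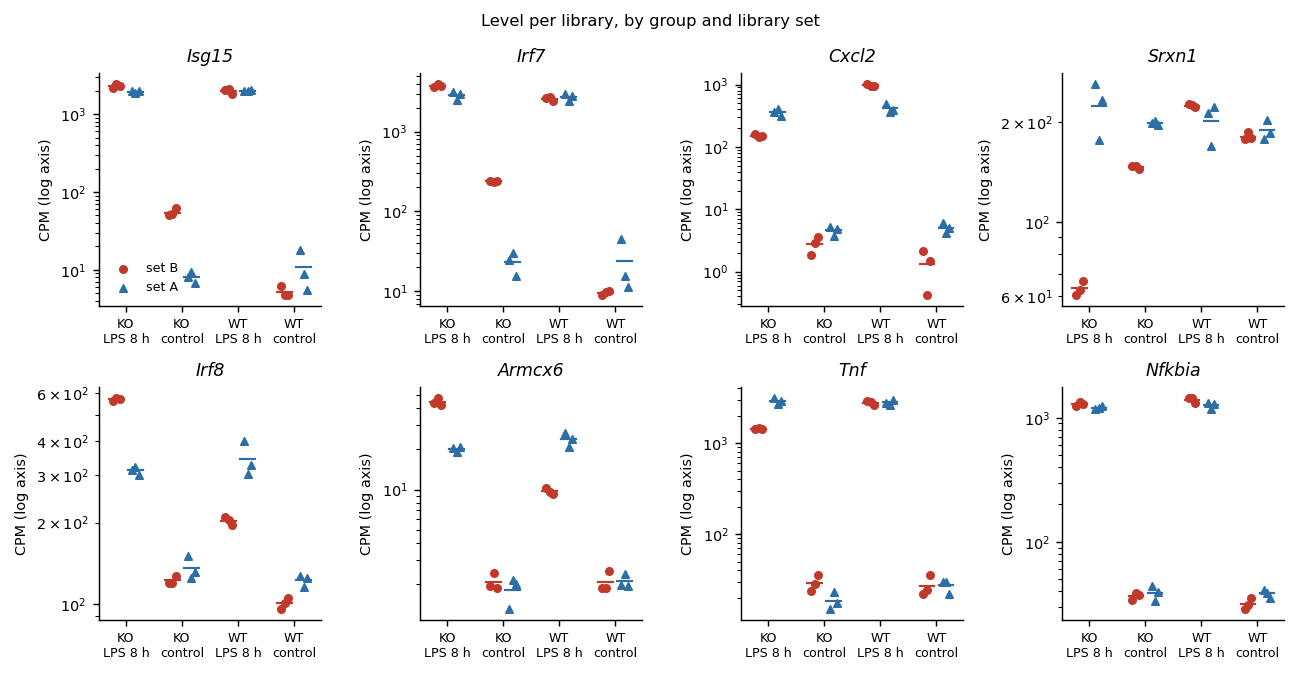
Level of 8 genes in each library (CPM on a log axis), by group from KO LPS 8 h to WT control, with set B as circles, set A as triangles and bars at the mean of 3 libraries. In set B, the labels are further apart in controls than at 8 h for Isg15 and Irf7. They are further apart at 8 h than in controls for Cxcl2, Srxn1, Irf8, Armcx6 and Tnf. Nfkbia overlaps or nearly overlaps throughout.

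The upstream sequence of 3 of these genes is shown because all 3 were called in set B under every alternative tried and hold the element through which interferon acts. Each line gives 160 bases before the RefSeq start, 5′ to 3′ on the gene's strand, in build GRCm38.p6. Capitals mark GAAANNGAAA, the core of the interferon-stimulated response element, on either strand, so that a match on the opposite strand appears as its reverse complement, and overlapping matches run together. Isg15 lies at chr4:156200819-156200978 on the minus strand with 3 matches, Ifit1 at chr19:34640729-34640888 on the plus strand with 2, and Ifit3 at chr19:34583369-34583528 on the plus strand with 2.
Isg15: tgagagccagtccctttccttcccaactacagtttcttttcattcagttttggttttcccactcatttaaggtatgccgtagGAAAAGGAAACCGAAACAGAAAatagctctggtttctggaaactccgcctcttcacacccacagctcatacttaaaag
Ifit1: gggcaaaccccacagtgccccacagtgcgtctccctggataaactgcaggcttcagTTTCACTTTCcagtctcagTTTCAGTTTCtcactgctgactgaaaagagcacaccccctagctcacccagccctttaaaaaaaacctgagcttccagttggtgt
Ifit3: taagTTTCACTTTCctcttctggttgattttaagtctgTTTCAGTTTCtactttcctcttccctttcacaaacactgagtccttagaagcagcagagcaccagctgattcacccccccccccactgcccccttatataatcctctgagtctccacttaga
The motif was present in 14 of the 34 interferon-stimulated genes that had a promoter in the RefSeq table, and in 565 of all 32851 promoters (1.72%) over the same length. The list was counted by gene, with a match in any of its promoters, and the whole table by promoter. A match is a description of these letters and not a site of binding.

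Genes that interferon gamma and IRF1 also induce followed in part. Of 19 tested, 8 were called lower and 1 higher in set B, with a median of -1.28, against -0.02 in set A. The lower count was 5 without WT control replicate 4 and 13 with no count filter. Tgtp2, an immunity-related GTPase, stood at -3.89 ± 0.64, and the guanylate-binding protein gene Gbp3 at -1.87 ± 0.36. Gbp3 had 16.1, 15.9 and 19.2 CPM in KO controls and 4.42, 3.9 and 4.04 CPM in WT controls of set B, and the groups did not overlap. After LPS it had 1850, 1850 and 1780 CPM in KO and 1640, 1610 and 1540 CPM in WT libraries. Near-identical copies exist in the Tgtp, Gbp and p200 families, so counts may be split between members.

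In the MHC class I presentation list, 8 of 21 genes were called lower and 0 higher in set B (median -0.48; set A 0.11). The count was 5 without replicate 3 of KO LPS 8 h or of WT LPS 8 h, and 13 with a term for Xist or without the WT libraries that held Xist reads. In this comparison those WT libraries are in set A, and leaving them out kept the set B median at -0.48. The calls changed through the spread shared by both sets. H2-T24, a non-classical class I gene, had 32.1, 35.1 and 36.8 CPM in KO controls, against 4.33, 4.56 and 4.11 CPM in WT controls. At 8 h it had 273, 284 and 273 CPM in KO and 213, 227 and 207 CPM in WT libraries, for an interaction of -2.64 ± 0.25 (adjusted p = 2.49e-08). Tap1, a subunit of the peptide transporter, stood at -1.02 ± 0.21 (adjusted p = 0.00257), and the difference between the sets was called for it (-1.53 ± 0.30). Here too the list stood apart in controls, where 19 of 21 were called higher in KO libraries of set B (2.49% of all genes were).

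The genes for interferon and its feedback were less clear. Ifnb1, the gene of interferon beta, had 4.6, 4.17 and 4.96 CPM in KO and 2.36, 1.23 and 2.46 CPM in WT libraries after LPS in set B, and at most 0.303 CPM in any control library. Its interaction was not called (-0.98 ± 0.84). Socs1 had 74.9, 94.1 and 94.7 CPM in KO and 69, 71.7 and 64.9 CPM in WT libraries at 8 h, with controls at 1.97 to 2.06 CPM in KO and 1.02 to 1.38 CPM in WT libraries. Its interaction was -0.30 ± 0.50 in set B and 0.53 ± 0.56 in set A, and neither was called. Socs3 stood at 0.16 ± 0.29 in set B. Of the 22 genes of the SOCS and JAK-STAT list, 3 were called higher and 1 lower in set B. Cish, a cytokine-inducible SOCS family member, was the lower one (-2.31 ± 0.55, adjusted p = 0.00873), with 3.42, 2.84 and 5.24 CPM in KO and 9.34, 11.1 and 11.5 CPM in WT libraries at 8 h. Limma-voom did not call Cish, nor was it called without KO control replicate 5 of set B. Stat3, the transcription factor of interleukin 6 and interleukin 10 signalling, was higher at 0.78 ± 0.17.

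Some chemokines also had a smaller KO response in set B, and several of these differed at 8 h rather than before. Of 19 tested, 8 were called lower, 1 higher (Ccl8, 1.13) and 10 not called, with a median of -0.83 against -0.11 in set A. Without WT control replicate 4, 4 were called lower. Cxcl2, which attracts neutrophils, had 160, 146 and 148 CPM in KO and 1030, 937 and 940 CPM in WT LPS 8 h libraries of set B. Its controls were at 1.88, 2.91 and 3.54 CPM in KO and 2.12, 0.42 and 1.48 CPM in WT libraries. The interaction was -3.83 ± 0.33 (adjusted p = 4.47e-09). Set A had 357 ± 44.5 CPM in KO and 415 ± 63.6 CPM in WT libraries at 8 h (SD, n = 3 each), groups that overlapped, and an interaction of -0.11 ± 0.27. The difference between the sets was called (-3.71 ± 0.43, adjusted p = 3.93e-06).

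Cxcl1 and Cxcl3, neighbours of Cxcl2 on chromosome 5 that also attract neutrophils, went the same way from few control counts. Cxcl1 had 11.6, 11.3 and 12.1 CPM in KO and 54.7, 47.8 and 49.8 CPM in WT libraries at 8 h in set B, and under 1 CPM in every control. Its interaction was -3.12 ± 0.81 (adjusted p = 0.0174). Cxcl3 had 17.2, 17.5 and 18.8 CPM in KO and 109, 99.5 and 106 CPM in WT libraries, with an interaction of -4.11 ± 1.15 (adjusted p = 0.0303). Both calls were lost with limma-voom, Cxcl1 also without control replicate 4 of either label, and Cxcl3 in 6 further cases in which a single library of set B or the 2 with muscle reads were left out. The 8 h difference in set B, which needs no control, was -2.12 ± 0.23 for Cxcl1 and -2.55 ± 0.22 for Cxcl3. Ccl3, which attracts monocytes, was lower at -0.90 ± 0.26 (adjusted p = 0.0327). Its call was lost without any of 9 single libraries. Ccl5 (-1.85), Ccl12 (-1.40) and Cxcl10 (-1.60 ± 0.40) instead stood higher in KO controls of set B, by 1.81, 1.61 and 2.10. Cxcl10 had few counts there and lost its call without KO control replicate 3, WT control replicate 4 or WT control replicate 5 of set B.

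The upstream sequence of the 3 neutrophil chemokines is shown because all 3 were lower in KO than in WT libraries at 8 h in set B and share a kappa B element, the kind of sequence NF-kB binds. Capitals mark GGGAATTTCCC, the longest run of bases that all 3 windows share, which holds a kappa B sequence. The windows of 160 bases before the RefSeq start in GRCm38.p6, all on the plus strand, are chr5:90891085-90891244 for Cxcl1, chr5:90903739-90903898 for Cxcl2 and chr5:90785941-90786100 for Cxcl3.
Cxcl1: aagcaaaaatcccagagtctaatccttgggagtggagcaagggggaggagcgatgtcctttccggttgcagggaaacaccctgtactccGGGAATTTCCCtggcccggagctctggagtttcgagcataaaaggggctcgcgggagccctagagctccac
Cxcl2: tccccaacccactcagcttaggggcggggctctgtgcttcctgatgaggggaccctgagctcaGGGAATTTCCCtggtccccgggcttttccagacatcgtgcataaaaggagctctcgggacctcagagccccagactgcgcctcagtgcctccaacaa
Cxcl3: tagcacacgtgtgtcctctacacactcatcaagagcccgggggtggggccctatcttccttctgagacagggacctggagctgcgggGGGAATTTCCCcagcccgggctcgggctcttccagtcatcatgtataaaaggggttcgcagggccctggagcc
Searched on both strands, the run was found in 3 of 13 chemokine genes in the RefSeq table, these 3, and in 10 of all 32851 promoters (0.03%). Because the run was taken from these 3 windows, their matches were fixed in advance and the counts test no enrichment. The chemokines were counted by gene and the whole table by promoter. Other kappa B sequences were not searched.

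Of 23 inflammatory cytokines, 3 were called lower and 0 higher in set B (median -0.40; set A -0.09). Tnf, the tumour necrosis factor gene, had 1450, 1470 and 1430 CPM in KO and 2920, 2810 and 2630 CPM in WT LPS 8 h libraries of set B. Its controls overlapped, at 23.6, 28 and 35.7 CPM in KO and 21.9, 24.3 and 35.2 CPM in WT libraries. The interaction was -1.05 ± 0.20 (adjusted p = 0.000882) in set B and 0.63 ± 0.20 in set A, where it was not called. The difference between the sets was -1.68 ± 0.28 (adjusted p = 0.000452). Il1a, which encodes interleukin 1 alpha, had 921, 927 and 1040 CPM in KO and 2630, 2500 and 2770 CPM in WT libraries at 8 h, with an interaction of -1.20 ± 0.30. Its call was lost with limma-voom and without KO control replicate 3 or WT control replicate 4. Osm, the gene of oncostatin M, was lower at -0.92 ± 0.19. Il1b, Il6, Il10 and Il12b were not called in either set. Il1b nevertheless had 1420, 1530 and 1650 CPM in KO and 4780, 4910 and 5040 CPM in WT libraries at 8 h in set B. With under 2 CPM in every control its interaction had a wide error (-2.04 ± 0.83).

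NF-kB subunits and feedback inhibitors showed little difference. Of 22 tested, 1 was called higher (Rel, an NF-kB subunit, 0.57) and 1 lower (Traf1, a signalling adaptor, -1.13) in set B, and the median was -0.06 in set B and -0.06 in set A. Nfkbia, the inhibitor that NF-kB itself induces, had 1250, 1350 and 1300 CPM in KO and 1450, 1440 and 1320 CPM in WT libraries at 8 h in set B. Its interaction was -0.32 ± 0.12 (adjusted p = 0.136). Nfkb1 stood at -0.10 ± 0.13 and Rela at -0.05 ± 0.14. In the Toll-like receptor signalling list 1 of 26 was called, Cd14, the LPS co-receptor. It had 885, 995 and 975 CPM in KO and 1370, 1400 and 1270 CPM in WT libraries at 8 h, for an interaction of -0.80 ± 0.19. Nos2, the inducible nitric oxide synthase, had 4680, 4410 and 4550 CPM in KO and 2570, 2360 and 2430 CPM in WT libraries at 8 h in set B, without overlap. With at most 2.48 CPM in its controls, its interaction was 0.63 ± 0.93 and not called. Of the 14 genes of the nitric oxide and arginine list, 0 were called in either set (1 at an unadjusted p below 0.05 in the pooled fit).

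Some antioxidant genes controlled by NRF2 were lower in KO-labelled libraries of set B. Of 25 tested, 5 were called lower and 0 higher for the interaction (median -0.15; set A -0.02), while at 8 h 11 were called lower (6.71% of all genes were) and 2 higher. The 5 became 3 with limma-voom, without the libraries whose label begins with BMDM, or without KO LPS 8 h replicate 4, KO control replicate 3 or 4, or WT control replicate 5. Srxn1, which encodes sulfiredoxin and reactivates peroxiredoxins, had 60.4, 62.7 and 66.8 CPM in KO and 226, 224 and 221 CPM in WT LPS 8 h libraries. Its controls had 147, 147 and 144 CPM in KO and 177, 186 and 179 CPM in WT libraries. Srxn1 therefore fell with LPS in KO-labelled and rose in WT-labelled libraries of set B, with an interaction of -1.51 ± 0.14 (adjusted p = 1.64e-08). In set A the KO values at 8 h were 260, 176 and 232 CPM and the WT values 212, 169 and 222 CPM, which overlapped. Txnrd1 (thioredoxin reductase, -0.85 ± 0.16) and Gclm (the modifier subunit of glutathione synthesis, -0.81 ± 0.13) were also lower. Slc7a11, the cystine importer, had 44.4, 36.5 and 39.5 CPM in KO and 193, 176 and 200 CPM in WT libraries at 8 h (-1.63 ± 0.45, adjusted p = 0.026). The catalytic subunit gene Gclc stood at -0.78 ± 0.22. The calls of Slc7a11 and Gclc were lost with limma-voom, without the libraries whose label begins with BMDM, and without single libraries of set B. In this comparison the BMDM libraries are in set A. Leaving them out acts on set B calls through the shared spread and does not test the set B values.

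Sterol and fatty acid synthesis had 3 of 23 genes called lower and 0 higher in set B (median -0.48; set A 0.18). The 3 became 1 with limma-voom or without KO LPS 8 h replicate 3, 4 or 5, KO control replicate 3 or 5, or WT LPS 8 h replicate 3, and 11 with no count filter. The difference at 8 h was wider than that count. At that time 18 of 23 were called lower in KO than in WT libraries of set B (6.71% of all genes were), with a median of -1.03. Sqle, squalene epoxidase, had 27.1, 27.6 and 24.8 CPM in KO LPS 8 h and 82.2, 86.5 and 73.4 CPM in WT LPS 8 h libraries. Controls had 127, 129 and 121 CPM in KO and 194, 177 and 156 CPM in WT libraries, so the groups were apart before LPS too. The interaction was -1.13 ± 0.26 (adjusted p = 0.00569), and the difference between the sets was called (-1.46 ± 0.36). Fasn, fatty acid synthase, stood at -0.90 ± 0.25 and Stard4, a sterol carrier, at -0.91 ± 0.27. Both were lost with limma-voom and without single libraries of set B.

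Immediate early genes and MAP kinase phosphatases were mixed, with 3 lower and 1 higher of 25 (median 0.00 in set B, -0.06 in set A). Dusp8 (-2.25 ± 0.42), Dusp4 (-1.22 ± 0.31) and Maff, a small MAF transcription factor (-1.17 ± 0.30), were lower, and the difference between the sets was called for each. Dusp2 was higher (1.33 ± 0.37), at 131, 145 and 138 CPM in KO and 83.3, 86.9 and 80.6 CPM in WT libraries at 8 h. Limma-voom and most omissions of a single library of set B lost the Dusp2 call. Of the surface receptors, Marco, a scavenger receptor for bacteria, had 198, 197 and 176 CPM in KO and 548, 534 and 465 CPM in WT libraries at 8 h (-1.58 ± 0.31, adjusted p = 0.00105). Icosl, a costimulatory ligand, was lower at -1.18 ± 0.20.

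Some genes with a lower interaction outside the lists were picked out after their values were seen. Ampd3, AMP deaminase, had 34.2, 31.8 and 33.2 CPM in KO and 113, 95.2 and 104 CPM in WT libraries at 8 h in set B. Its controls lay between 38.5 and 39.8 CPM in KO and between 38.1 and 41.1 CPM in WT libraries. Within set B, Ampd3 thus rose with LPS in WT-labelled and not in KO-labelled libraries. In set A its mean rose in both labels, from 37.9 to 58 CPM in KO and from 37.5 to 54.4 CPM in WT libraries. The interaction was -1.61 ± 0.16 (adjusted p = 8.71e-08) in set B and 0.06 ± 0.17 in set A. Rhob, a small GTPase gene that fell with LPS, had 32.3, 40.6 and 38 CPM in KO and 69.1, 66.6 and 67.7 CPM in WT libraries at 8 h (-1.18 ± 0.11, adjusted p = 1.64e-08).

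The 362 genes with a higher interaction in set B differed almost entirely at 8 h. For 351 of them the KO minus WT difference was larger at 8 h than in controls. At 8 h 348 of them were called higher in KO, against 10.4% of all genes. The median difference was 0.70 at 8 h and -0.05 in controls. Their median response was 1.04 in KO-labelled and 0.38 in WT-labelled libraries of set B, and their median interaction in set A was 0.00. Armcx6, an armadillo repeat gene on the X chromosome, had 44.1, 47.9 and 42.5 CPM in KO and 10.3, 9.61 and 9.3 CPM in WT LPS 8 h libraries of set B. Its controls overlapped, between 1.86 and 2.42 CPM in KO and between 1.86 and 2.49 CPM in WT libraries. The interaction was 2.20 ± 0.25 (adjusted p = 4.57e-07) in set B and -0.01 ± 0.28 in set A. Abcb1a, the drug efflux pump P-glycoprotein, had 36.7, 35.7 and 36.4 CPM in KO and 9.24, 8.67 and 9.41 CPM in WT libraries at 8 h (1.89 ± 0.24). Znrf3, a ubiquitin ligase that removes Wnt receptors, stood at 1.96 ± 0.25, and Tle3, a transcriptional corepressor, at 1.57 ± 0.31. Sgpp1, a sphingosine phosphate phosphatase, had 91.1, 95.6 and 90.7 CPM in KO and 35, 34.1 and 29.2 CPM in WT libraries at 8 h (1.49 ± 0.17). Other large values were those of Maml3, a Notch coactivator (1.72 ± 0.33), Hivep2, a zinc finger transcription factor (1.65 ± 0.27), Uaca (1.66 ± 0.27) and Cnn3, an actin-binding calponin (1.61 ± 0.42). The Cnn3 call was lost with limma-voom and without KO control replicate 3 or WT control replicate 5. Esco2, a cohesin acetyltransferase, had the largest value named (2.54 ± 0.77) but at most 1.31 CPM after LPS, and 19 of 37 alternatives lost the call.

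Factors of macrophage identity and of alternative activation were among them. Irf8, a transcription factor of the monocyte and dendritic cell lineages, had 564, 578 and 573 CPM in KO and 209, 204 and 196 CPM in WT LPS 8 h libraries of set B. Controls had 120, 120 and 127 CPM in KO and 95.8, 101 and 105 CPM in WT libraries. In set A the 8 h values were 313, 322 and 300 CPM in KO and 400, 303 and 326 CPM in WT libraries, which overlapped. The interaction was 1.21 ± 0.16 in set B (adjusted p = 4.65e-06), -0.28 ± 0.16 in set A, and the difference was called (1.50 ± 0.23, adjusted p = 0.000106). Of 17 macrophage identity genes 2 were called higher and 2 lower. Il4ra, the interleukin 4 receptor chain, had 829 ± 13.2 CPM in KO and 362 ± 4.41 CPM in WT libraries at 8 h (SD, n = 3 each), for an interaction of 1.04 ± 0.23. Pparg, a nuclear receptor, stood at 0.87 ± 0.17. These were the 2 of 17 alternative activation genes called, and both differed between the sets.

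Cell cycle genes mostly fell with LPS in all 4 set and label combinations, with medians between -3.14 and -2.58. Their median interaction was 0.53 in set B and 0.12 in set A. Of 36 tested, 4 were called higher and 0 lower in set B. Tpx2, a spindle assembly factor, had 155, 169 and 166 CPM in KO and 86.2, 81 and 79.3 CPM in WT libraries at 8 h (1.29 ± 0.20, adjusted p = 5.31e-05). Its controls of set B had 100, 98.1 and 99.2 CPM in KO and 125, 122 and 119 CPM in WT libraries. Tpx2 therefore rose with LPS in KO-labelled and fell in WT-labelled libraries of set B. In set A its mean rose in both labels, from 65.7 to 173 CPM in KO and from 65.1 to 161 CPM in WT libraries. Kif11, a spindle motor, had 6.48, 8.33 and 8.98 CPM in KO and 3.34, 3.96 and 4.28 CPM in WT libraries at 8 h (1.36 ± 0.36). Cenpe stood at 1.14 ± 0.29 and Ccne2 at 1.32 ± 0.36. The count was 2 without the 2 libraries with skeletal muscle reads, and without KO LPS 8 h replicate 5, WT LPS 8 h replicate 4 or WT LPS 8 h replicate 5 alone, and 13 with no count filter. Kif11 was also lost with limma-voom and without 3 single libraries, and Ccne2 without 5. Clspn, a replication checkpoint gene outside that list, was higher in set B (1.41 ± 0.30), and its difference between the sets was called (2.78 ± 0.74). That difference rests on few counts in set A, where Clspn at 8 h had 0.102, 0.402 and 0.111 CPM in KO and 0.702, 0.453 and 0.527 CPM in WT libraries.

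**Figure D3:**
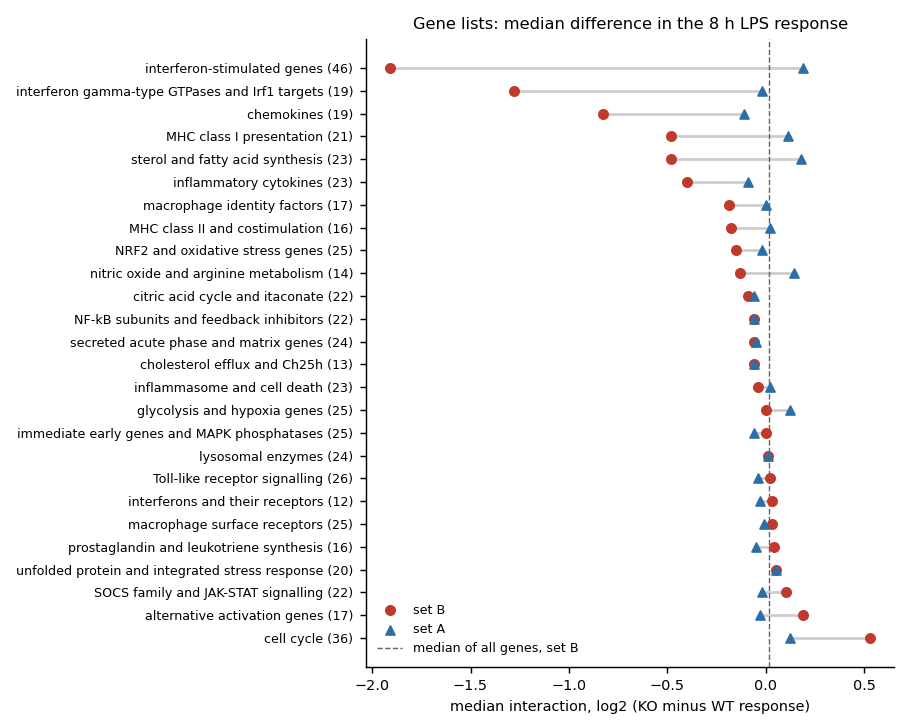
Median interaction (log2, KO response minus WT response) of the tested members of 26 pathway lists, with the number tested in brackets, in set B (circles) and set A (triangles), and the median of all genes in set B as a dashed line. Interferon-stimulated genes have the lowest median in set B (-1.91) and cell cycle genes the highest (0.53), while the set A medians lie between -0.11 and 0.19.

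The 307 genes with a lower interaction in set B came in similar numbers from a difference in controls and a difference at 8 h. The KO minus WT difference was larger in controls for 140 and larger at 8 h for 167. In controls 136 were called higher in KO (2.49% of all genes were), and at 8 h 165 were called lower in KO (6.71%). The median difference was -0.38 at 8 h and 0.45 in controls, and the median response was 1.44 in KO-labelled and 2.50 in WT-labelled libraries. The same genes had a median interaction of 0.08 in set A. Over all genes, 2220 were called between KO and WT libraries of set B at 8 h (1350 higher, 870 lower) and fewer between the controls (323 higher, 63 lower). In set A the counts were 13 at 8 h and 10 in controls. Interaction and component contrasts share libraries, so the components describe where a difference lies and do not support it.

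**Figure D4:**
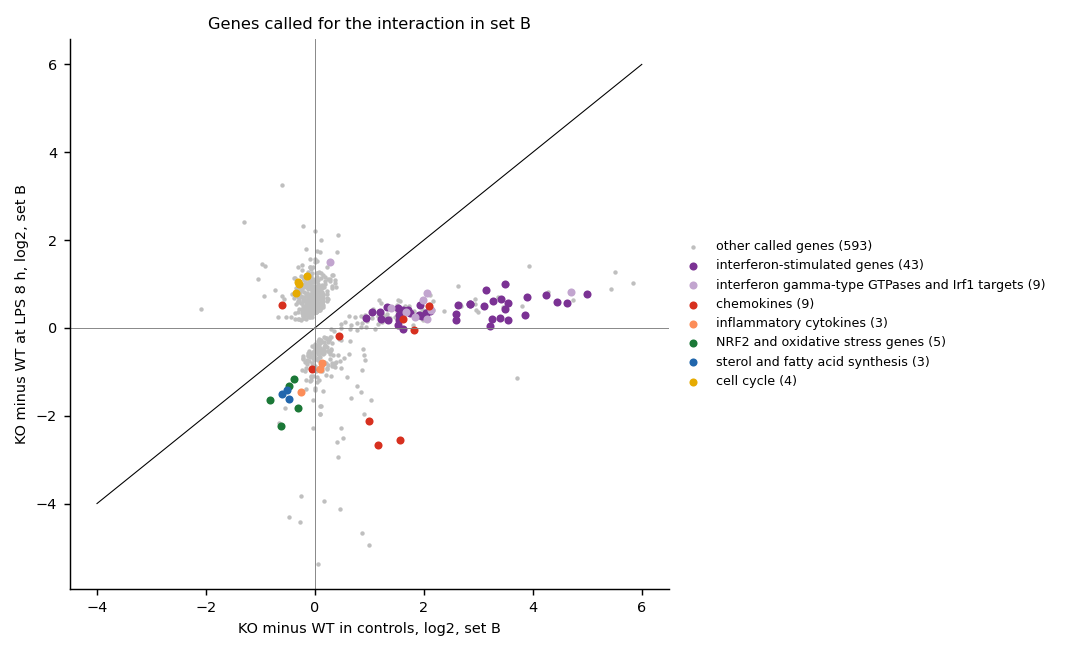
KO minus WT difference (log2) at LPS 8 h (vertical axis) and in controls (horizontal axis) of the 669 genes called in set B, coloured by list, with a line where both differences are equal. Interferon-stimulated genes lie to the right, and the median difference of the 46 tested was 2.35 in controls and 0.38 at 8 h. NRF2 and sterol genes lie below 0 on the vertical axis, and most higher genes lie above it with a control difference near 0.

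Sums over marker lists of other cells also differed between the labels in set B, though a few members can carry a sum. Only 3 of 14 T and NK cell, 4 of 12 B cell and 4 of 14 erythroid and megakaryocyte markers had enough counts to be tested. At 8 h in set B, 4 of 13 neutrophil and 7 of 10 stromal markers were called lower in KO. Of the dendritic markers 2 of 11 were called higher, as were 2 of the T and NK markers, and 0 of the B cell and erythroid markers were called. At 8 h neutrophil markers summed to 435 to 457 CPM in KO and 555 to 597 CPM in WT libraries, and in controls to 142 to 162 CPM in KO and 231 to 248 CPM in WT libraries. For dendritic cell markers the lowest sum at 8 h was 347 CPM in KO libraries and the highest 256 CPM in WT libraries, with 1 of 13 markers at 0 in the KO and 0 of 13 in the WT group. Their order was reversed in controls, at 138 to 147 CPM in KO and 153 to 170 CPM in WT libraries. The T and NK cell list had a total of 171 to 180 CPM in KO and 122 to 130 CPM in WT libraries at 8 h, with 7 of 14 at 0 in each group, and 256 to 274 CPM in KO and 204 to 213 CPM in WT controls. Erythroid and megakaryocyte markers summed to 144 to 152 CPM in KO and 217 to 223 CPM in WT libraries at 8 h, with 5 of 14 at 0 in the KO and 1 of 14 in the WT group, and 116 to 125 CPM in KO and 171 to 175 CPM in WT controls. The stromal list had a total of 60.9 to 64.1 CPM in KO and 108 to 307 CPM in WT libraries at 8 h, the 307 CPM in the WT library with most muscle reads (112 CPM in the next). Its controls had 31.6 to 37.2 CPM in KO and 62.8 to 75.8 CPM in WT libraries. For B cell markers the highest sum at 8 h was 328 CPM in KO and the lowest 340 CPM in WT libraries, and the controls overlapped. Mast cell and basophil markers summed to at most 2.7 CPM in controls and at least 173 CPM at 8 h in set B, so a sum can change with LPS in both labels. The part of other cells in the results was not tested. In bulk samples fewer cells of a type and less RNA per cell cannot be told apart.

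The skeletal muscle genes Ryr1 (-5.53 ± 1.35), Srl (-5.43 ± 1.47), Eno3 (-4.58 ± 1.28) and Tnni2 (-4.16 ± 1.23) were called lower in set B and rested on 1 library. Ryr1 had 0.825, 1.23 and 0.935 CPM in KO LPS 8 h, and 0.983, 0.471 and 76.4 CPM in WT LPS 8 h libraries of set B, the last in replicate 5. Without that library none of the 4 was called. Srl was also the gene called in both pooled responses with opposite directions. Leaving out the 2 libraries with muscle reads left 488 genes called in set B, 474 of them shared with the 669.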

How the data were processed

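RNA of mouse bone marrow-derived macrophages was sequenced in 36 libraries, 24 of which enter this comparison. The authors deposited raw read counts per gene, 1 table per library, with no normalization; counting used HTSeq on build mm10, per the submitters' processing notes. Not given in the sources used here were the aligner, annotation, HTSeq version and strand option, so overlapping and antisense genes cannot be told apart. The tables held 54232 identifiers and 0 rows naming no gene, and 54165 identifiers were found in GENCODE M21, used for symbols.

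Counts were filtered with filterByExpr, scaled with TMM and fitted in edgeR 4.0.16 (R 4.3.3) with 1 mean per group over all 36 libraries. Each contrast had a quasi-likelihood F test, adjusted by Benjamini-Hochberg over 12957 genes, and genes were called at an adjusted p below 0.05. A second fit had 12 means, 1 per group and library set. The sets follow the sign of principal component 1 of log2 CPM with group means subtracted. SE came from the F statistic. CPM are counts per 1000000 of scaled library size. Depth limits genes with few counts, and errors do not cover unlabelled batches.

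The comparison, the 26 pathway lists, the markers and the tests were chosen with earlier results of these data known. Genes named were the 10 largest calls in each direction per set and for the difference between sets (mean log2 CPM of 2 or more, no Gm or Rik names), up to 2 called members per list and direction, a list of key genes, and genes with opposite responses. Not every gene so chosen is described, and some are not reported here. Alternatives were other scalings, filters and tests (limma 3.58.1, DESeq2 1.42.0), set terms, a term for Xist and left-out libraries. Leaving out the WT libraries with Xist reads, the single-set fits of set calls and the counts per list were chosen after seeing the data. Computations were tested on simulated data. Promoter sequences came from RefSeq on GRCm38.p6 (mm10).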

Additional observations from a re-analysis of the deposited data

Results flagged for a closer look

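A library stood far from the other 5 of its group in 43 pairs of gene and group. Chance flags about 1 in 20 groups only where all libraries of a group come from a single population. Here each group held libraries of both sets, and many of the genes were chosen for large differences. That rate is therefore no baseline for the 43 flagged pairs, and whether they exceed chance was not tested. WT control replicate 1 of set A, a library with Xist reads, accounted for 13. It was the highest WT control for Irf7 (45.1 CPM), Ifit3 (20.4), Usp18 (20.2), Isg15 (18.0), Zbp1 (14.4), Gbp3 (8.72), Ifi206 (4.36), Ifi213 (3.99), Ifi44 (3.99), Tgtp2 (2.63), Ifi208 (1.43) and Tnni2 (14.8), and the lowest for Nav2 (53.1). WT LPS 8 h replicate 5 of set B was highest for Tnni2 (208.0 CPM), Eno3 (160.0), Ryr1 (76.4), Srl (58.4) and Nos1 (0.855). WT control replicate 3 of set B was highest for Abcb1a (6.28 CPM), Acod1 (5.94), Cxcl10 (2.12), Nos2 (2.04), Il1b (1.87) and Nos1 (0.255).

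Among KO control libraries, the flagged values were Irf8 (150.0 CPM) and Nav2 (46.2) in replicate 1, Nadk (134.0) and Nfkb1 (77.1) in replicate 6, Nos2 (2.48) and Il12b (0.67) in replicate 3, and Cxcl3 (0.394) in replicate 5. At 8 h in KO-labelled libraries they were Zbp1 (591.0 CPM), Cxcl1 (21.0) and Nav2 (1.01) in replicate 2, Maml3 (5.8) and Cish (5.24) in replicate 5, and Oasl1 (1210.0) in replicate 6. In WT-labelled libraries they were Srxn1 (169.0 CPM) in LPS 8 h replicate 2, Socs1 (90.9) and Il10 (27.2) in LPS 8 h replicate 6, Dusp4 (63.6) and Srxn1 (203.0) in control replicate 2, and Ndrg1 (83.6) in control replicate 6. The interaction differed between set B and set A for 224 genes, by a test of the difference itself.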

How the results depend on the processing

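No paired analysis was made, because the labels carry no replicate number. The numbers used here were given in accession order and only name libraries. They may nevertheless follow a pairing: the Xist reads were in replicate 1 of both WT groups, and the BMDM labels were on replicate 6 of all groups. Such a pairing was not tested. The sets, which hold the same numbers in each of the 4 groups, enter instead as set terms. Over all libraries, the count of 0 became 4 with the DESeq2 Wald test, 3 (Tmem110, Wdhd1 and Oasl1) with the set as an additive term, 187 with the interaction averaged over the sets and 2155 with set B alone, and it was 0 to 1 with a library left out (1 without KO LPS 8 h replicate 2, Nav2, or KO control replicate 6, Oasl1). The 224 genes that differed between the sets became 437 with no count filter, 135 without the libraries whose label begins with BMDM and 18 for a minimum log2 fold change of 1, and 164 to 437 with a library left out (437 without KO control replicate 2). In set B the 669 became 41 for that minimum, 1007 without the WT libraries with Xist reads, 2155 with the spread estimated in set B alone, and 473 to 775 with a library left out. In set A the 0 became 36 with no count filter and was 0 to 1 with a library left out. Fasn, at 0.08 over all libraries, turned to -0.92 with set B alone, and Tnni2 turned to 0.63 in set B without the 2 muscle libraries (adjusted p = 0.751) and ran from -4.73 to 0.63 with a library left out, 0.63 without WT LPS 8 h replicate 5 (adjusted p = 0.755), which by construction leaves out its reads. The cause of the other changes was not tested. The remaining alternatives kept each of these 4 counts within 1.5 times its value. Counts per list in set B moved further: for a minimum log2 fold change of 1, the interferon-stimulated genes called lower were 21 in place of 43 and each other list tried had 0 or 1, and with set B alone the calls were 18 for MHC class I presentation, 15 for sterol, 14 for interferon gamma-type, 11 for NRF2, 7 for inflammatory cytokine and 22 for cell cycle genes. Of the genes named, Isg15, Irf7, Ifit1, Ifit3, Oasl1, Zbp1, Usp18, H2-T24, Cxcl2, Srxn1, Armcx6, Abcb1a and Znrf3 were called in set B under all 37 alternatives. So were Ampd3, Ifi206, Ifi208, Ifi213, Ifi44 and Tgtp2. Several of the 37 leave out only libraries of set A within this comparison. These act on set B calls through the shared spread and scaling, so they do not test the set B values. Few counts in controls limit Ifnb1, Il1b, Il6, Il12b, Nos2 and Cxcl3.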
